A study of Mus musculus with 4 samples.

Results

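The TGF-beta signalling genes were followed in effector CD4 cells (CD44+ CD4 T cells) of mice with experimental autoimmune encephalomyelitis (EAE), a model of multiple sclerosis where CD4 cells primed against a peptide of myelin enter the central nervous system. Their members were chosen by name and comprise 10 genes of the 23990 gene symbols measured, namely the ligands Tgfb1 and Tgfb3, the receptors Tgfbr1 and Tgfbr2, the signal carriers Smad2, Smad3 and Smad4, the inhibitory Smad7, and the corepressors Ski and Skil. All 10 reached 1 FPKM on average in CNS or in dLN and entered the test across 10634 genes. FPKM is the number of fragments of a transcript scaled to its length and to the fragments mapped in the library, so that levels can be set side by side between genes.

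Cells of the spinal cord (CNS) gave 2 libraries and cells of draining lymph nodes (dLN) gave 2, each from wild type mice of the strain C57BL/6 (C57BL/6J in the study's methods) that had been immunized with MOG peptide in complete Freund's adjuvant, given pertussis toxin, and taken at disease onset. Age and the number of mice per library were not given in the sources used here, and the dLN cells came from pooled nodes. By the study's methods, PMA and ionomycin were added to the sorted cells before RNA was made. The sample labels instead call the cells freshly sorted and name no stimulation. Nothing says that replicates 1 and 2 came from separate animals, so p-values measure only the spread between these libraries, which may be technical.

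TGF-beta is a secreted cytokine that is made in a latent form and must be released before it can bind. The active ligand joins the type II receptor (Tgfbr2), which phosphorylates the type I receptor (Tgfbr1), and the type I receptor then phosphorylates Smad2 and Smad3, which enter the nucleus with Smad4. Smad7 blocks the type I receptor, Ski and Skil hold Smad complexes in a repressed state, and Smad7 and Skil are themselves target genes of the pathway. In CD4 cells TGF-beta restrains Th1 and cytotoxic differentiation, and it takes part in forming both regulatory T cells and, together with IL-6, Th17 cells.

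The spacing of low FPKM values put depth between 18.6 and 22.1 M fragments a library. The T-cell gene Cd3e was at 328 and 389 FPKM in CNS and at 104 and 89.2 FPKM in dLN. Cd4 was at 502 and 531 FPKM in CNS and at 82.0 and 66.7 FPKM in dLN. Both were thus present in all 4 libraries but higher in CNS. Over 8 CD4 T-cell markers the summed level was 2716 and 2726 FPKM in CNS and 984 and 908 FPKM in dLN. Cd5 and Cd44 of that list were higher in dLN, and the part of these levels in the differences below was not tested. Cd8a stayed at or under 0.834 FPKM, and Cd8b1 was at 3.66 and 4.56 FPKM in CNS and at 3.38 FPKM in both dLN libraries. CNS replicate 2 stood apart. Over 14 microglia and macrophage markers the summed level was 62.1 FPKM in CNS replicate 1, 274 FPKM in CNS replicate 2, and 8.48 and 6.38 FPKM in dLN. In both dLN libraries 8 of these 14 markers were at 0, among them Csf1r, C1qa and Tyrobp. Over 5 neutrophil markers the sums were 0.805 and 200 FPKM in CNS, and 0.0229 and 0 FPKM in dLN. Y-linked Ddx3y was read in CNS (12.7 and 11.2 FPKM) and listed at 0 in dLN, so tissue and the sex of the mice cannot be told apart, and neither can tissue and the handling of each tissue. In bulk RNA, fewer cells of a type and less RNA per cell cannot be told apart either.

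Between CNS and dLN, 8 of the 10 TGF-beta genes passed limma's test at a Benjamini-Hochberg adjusted p of 0.05, with 6 higher and 2 lower in CNS. The inhibitory and corepressor genes Smad7, Ski and Skil were higher in CNS, as were Tgfbr2, Smad3 and Tgfb3, whereas Tgfbr1 and Smad2 were lower. Tgfb1 and Smad4 did not pass. Of all genes tested 74.9% passed, 37.8% higher and 37.2% lower in CNS, so that a pass by itself is common in this comparison and the sizes tell more. Counting only passes that were 2-fold or more on the log2(FPKM + 1) scale left 5 of the 10, with Smad7, Tgfbr2, Ski and Tgfb3 higher and Tgfbr1 lower. Of all genes tested 39.2% met both criteria, 21% higher and 18.2% lower. The median log2 ratio was 0.82 over the 10 genes and 0.05 over all genes tested. In 9 of the 10 genes the libraries of the tissues did not overlap, which held for 89.4% of all genes. Log2 ratios throughout are CNS minus dLN on that scale, on which differences of genes with few FPKM come out too small.

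**Figure D1:**
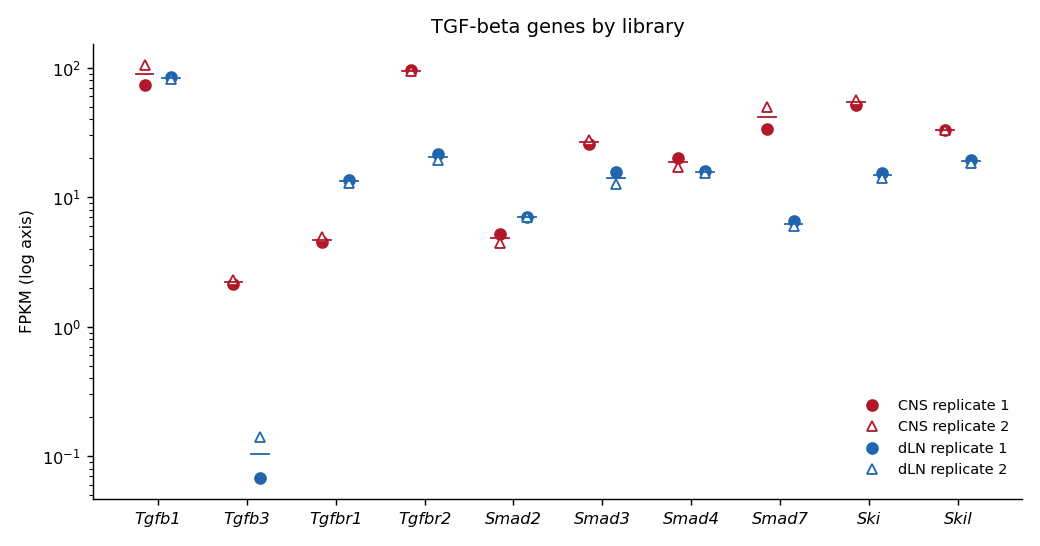
FPKM (log axis) of the 10 TGF-beta genes in each library, with CNS in red, dLN in blue, replicate 1 as filled circles, replicate 2 as open triangles and short lines for the mean of each tissue. Smad7, Ski and Tgfbr2 stood well above dLN in both CNS libraries, Tgfbr1 stood below, and the Tgfb1 libraries of CNS lay on either side of dLN.

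The ligand Tgfb1, the main TGF-beta of T cells, was among the most abundant genes of the pathway in both tissues. Tgfb1 (Entrez gene 21803, mm10 chromosome 7, 25687002 to 25704996) was at 73.8 and 106 FPKM in CNS and at 84.5 and 81.2 FPKM in dLN. CNS replicate 1 thus lay below both dLN libraries and CNS replicate 2 above them. The log2 ratio was 0.09 (95% interval -0.38 to 0.56, limma adjusted p = 0.67). Its value turned on 1 CNS library, with a log2 ratio of 0.34 (limma adjusted p = 0.0295) without CNS replicate 1 and of -0.17 (limma adjusted p = 0.114) without CNS replicate 2. Myeloid cells are a known source of Tgfb1, and the CNS library with more Tgfb1 was the one with more myeloid and neutrophil marker RNA, whose part in this difference was not tested.

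Tgfb3, a second isoform of the ligand that is made by some Th17 cells, was low everywhere but read clearly in CNS. Tgfb3 (Entrez gene 21809, chromosome 12, 86056743 to 86079041) was at 2.14 and 2.31 FPKM in CNS and at 0.0674 and 0.141 FPKM in dLN. These values stand for about 145 and 160.2 fragments in CNS and 4 and 10 fragments in dLN. Both CNS libraries lay above both dLN libraries, and the ratio of the mean FPKM was 21.3. On the log2 scale the ratio was 1.55 (standard error, SE, 0.14, limma adjusted p = 0.00059), and 3.53 with a pseudocount of 0.1 in place of 1. The remaining ligand, Tgfb2, did not reach the minimum for the test. It was listed at 0.0105 and 0.0203 FPKM in CNS (1 and 2 fragments) and at 0.19 and 0.289 FPKM in dLN (16 and 29 fragments), too few for a fold to be given.

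The receptors moved in opposite directions. Tgfbr2, which binds the ligand first, was at 95.8 and 94.1 FPKM in CNS and at 21.5 and 19.3 FPKM in dLN (Entrez gene 21813, chromosome 9, 116087695 to 116175363). The CNS libraries agreed closely and lay far above both dLN libraries, and the log2 ratio was 2.17 (SE 0.09; limma adjusted p = 9.18e-05). Of all genes tested, 5.99% had a log2 ratio at least as high. Tgfbr1, the kinase that phosphorylates Smad2 and Smad3, was at 4.48 and 4.89 FPKM in CNS and at 13.7 and 12.8 FPKM in dLN (Entrez gene 21812, chromosome 4, 47353305 to 47414924). Its CNS values were both under its dLN values, and its log2 ratio was -1.33 (SE 0.10, adjusted p = 0.000296 by limma), and 12.5% of all genes had a ratio at least as low. Within a library, Tgfbr2 exceeded Tgfbr1 by 21.4 and 19.2 times in CNS and by 1.57 and 1.504 times in dLN. A ratio within a library does not depend on how the library was scaled. With 2 libraries a tissue, the smallest p that an exact permutation test allows is 0.3333, and each such ratio below reached it.

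The deposited tables hold 2 transcripts of Tgfbr2, NM_009371 and NM_029575, whose lengths differ by 75 bases. In the matching GENCODE M21 transcripts this difference is a whole coding exon, exon 2 of 8, at chr9:116158271-116158345 on the minus strand of GRCm38 (mm10). It lies in the part of the gene that encodes the extracellular end of the receptor, and its length is a multiple of 3. The exon is shown because it is what tells the receptor's forms apart in these data.
Tgfbr2 exon 2: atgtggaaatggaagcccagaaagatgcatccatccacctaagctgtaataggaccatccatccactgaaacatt
The transcript with this exon was at 52.2 and 48.0 FPKM in CNS and at 9.64 and 9.22 FPKM in dLN, and the transcript without it was at 43.6 and 46.1 FPKM in CNS and at 11.8 and 10.1 FPKM in dLN. Both forms were therefore more abundant in both CNS libraries than in either dLN library. Out of the FPKM of Tgfbr2, the form with the exon made up 54.5% and 51.0% in CNS and 44.9% and 47.7% in dLN. The shares did not overlap between the tissues, but the difference of 6.41 percentage points fell to 4.68 without CNS replicate 1 (two-sided exact permutation p = 0.3333). Such shares rest on the authors' program dividing the reads of shared exons between transcripts.

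Promoter sequence of the receptors was taken from the RefSeq table of GRCm38.p6, as the 250 bases before the annotated start, because the receptors differed in opposite directions. For Tgfbr1 the table has another start inside the gene, and the window at the gene's outer end was used. Capitals mark 2 short motifs that Smad proteins are known to bind, CAGAC and GGCGC, searched on both strands.
Tgfbr2, chr9:116175364-116175613, minus strand: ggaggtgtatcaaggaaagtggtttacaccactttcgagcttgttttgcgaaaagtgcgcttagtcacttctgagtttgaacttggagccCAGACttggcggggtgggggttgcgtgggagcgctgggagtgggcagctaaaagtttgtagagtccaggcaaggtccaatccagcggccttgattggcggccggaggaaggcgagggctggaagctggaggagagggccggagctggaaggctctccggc
Tgfbr1, chr4:47352972-47353221, plus strand: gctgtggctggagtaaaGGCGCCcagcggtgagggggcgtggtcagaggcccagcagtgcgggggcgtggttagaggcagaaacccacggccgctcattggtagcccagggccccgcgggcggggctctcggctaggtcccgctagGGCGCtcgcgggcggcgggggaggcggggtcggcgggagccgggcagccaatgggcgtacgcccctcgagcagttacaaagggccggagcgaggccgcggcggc
The Tgfbr2 window held CAGAC at 1 place and no GGCGC, and the Tgfbr1 window held GGCGC or its complement at 3 places, 2 of them overlapping, and no CAGAC. These letters are common, since 42.2% of 32851 promoter windows of the same length hold CAGAC and 32.0% hold GGCGC. The base composition differed too, with 58.4% G and C for Tgfbr2 and 74.8% for Tgfbr1. The window at the inner Tgfbr1 start, not shown, held CAGAC at 1 place and no GGCGC, with 52.8% G and C. The contrast between the receptors thus depends on which Tgfbr1 start is taken. A promoter entry was found for 5 of the 10 genes. Ski, higher in CNS, held GGCGC or its complement at 7 places, with 87.6% G and C. Smad3, also higher, held neither motif, with 69.2% G and C. Tgfb1, which did not pass, held GGCGC at 1 place, with 75.2% G and C. The median over all promoter windows was 52.4% G and C.

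**Figure D2:**
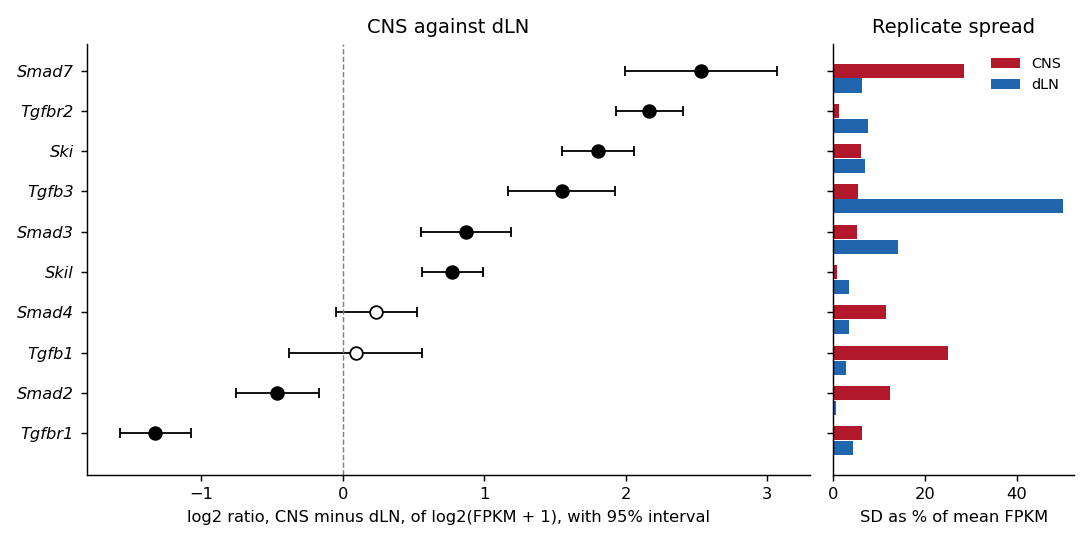
Left, log2 ratio of each TGF-beta gene, CNS minus dLN, with its 95% interval from limma; filled points passed the adjusted p of 0.05 and open points did not. Right, the SD of the 2 libraries of each tissue as a percentage of their mean FPKM, with CNS in red and dLN in blue. Smad7 and Tgfb1 had a wide spread in CNS and Tgfb3 in dLN.

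The Smads that carry the signal did not move as a group. Smad3, the activated Smad that binds DNA directly, was at 25.6 and 27.5 FPKM in CNS and at 15.5 and 12.7 FPKM in dLN (Entrez gene 17127, chromosome 9, 63646767 to 63757994). It was higher in both CNS libraries, and the log2 ratio was 0.87 (SE 0.12; limma adjusted p = 0.00233). Smad2, its partner downstream of the same receptor, was at 5.23 and 4.40 FPKM in CNS and at 6.97 and 7.03 FPKM in dLN (Entrez gene 17126, chromosome 18). Both CNS libraries lay below dLN, and the log2 ratio was -0.46 (SE 0.11, by limma adjusted p = 0.0154). This call was lost without CNS replicate 2 (adjusted p = 0.0779), without dLN replicate 1 (adjusted p = 0.0698) and without dLN replicate 2 (adjusted p = 0.0807), while the direction stayed. Smad4, the partner common to all Smad complexes, was at 20.2 and 17.2 FPKM in CNS and at 16.0 and 15.3 FPKM in dLN (Entrez gene 17128, chromosome 18). Its log2 ratio was 0.24 (95% interval -0.05 to 0.52, limma adjusted p = 0.106). Smad4 passed when the libraries were scaled to the same upper quartile (log2 ratio 0.37, adjusted p = 0.0346), and its log2 ratio was 0.05 when they were scaled to the same sum. Within a library, Smad3 exceeded Smad2 by 4.90 and 6.26 times in CNS and by 2.23 and 1.81 times in dLN.

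Smad7, which blocks the type I receptor and is induced by TGF-beta as a brake, had the highest log2 ratio of the 10 genes on this scale. With a pseudocount of 0.1 in place of 1 the order changed, with Tgfb3 at 3.53 and Smad7 at 2.69. Smad7 (Entrez gene 17131, chromosome 18) was at 33.3 and 50.04 FPKM in CNS and at 6.51 and 5.96 FPKM in dLN. The lower CNS library was still several times above both dLN libraries, its log2 ratio being 2.53 (SE 0.21, adjusted p = 0.000391 by limma), and 3.97% of all genes tested had a ratio as high. The library with more myeloid marker RNA was the one with more Smad7 here too, and its part was not tested. Without CNS replicate 2 the log2 ratio was 2.25 and without CNS replicate 1 it was 2.82. Set against the kinase it blocks, Smad7 was at 7.44 and 10.2 times the FPKM of Tgfbr1 in CNS and at 0.477 and 0.464 times in dLN. Set against Smad3, it was at 1.30 and 1.82 times in CNS and at 0.419 and 0.468 times in dLN. Smad6, the other inhibitory Smad, which acts mainly on BMP signals, did not reach the minimum for the test, with 0.119 and 0.166 FPKM in CNS (7 and 10 fragments) and 0 and 0.0162 FPKM in dLN (0 and 1 fragments).

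Both corepressors were higher in CNS, Ski by more than Skil. Ski was at 51.8 and 56.4 FPKM in CNS and at 15.5 and 14.1 FPKM in dLN (Entrez gene 20481, chromosome 4, 155154075 to 155222535). The tissues were far apart relative to their replicates, and the log2 ratio was 1.80 (SE 0.10, adjusted p = 0.000144 by limma). Skil, also known as SnoN, was at 33.1 and 32.8 FPKM in CNS and at 19.3 and 18.4 FPKM in dLN (Entrez gene 20482, chromosome 3, 31095058 to 31122923), for a log2 ratio of 0.78 (SE 0.08, adjusted p = 0.000889 by limma). Within a library, Ski was at 1.56 and 1.72 times the FPKM of Skil in CNS and at 0.803 and 0.764 times in dLN, so that their order was reversed between the tissues. The difference between the tissues in this log2 ratio was 1.06.

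**Figure D3:**
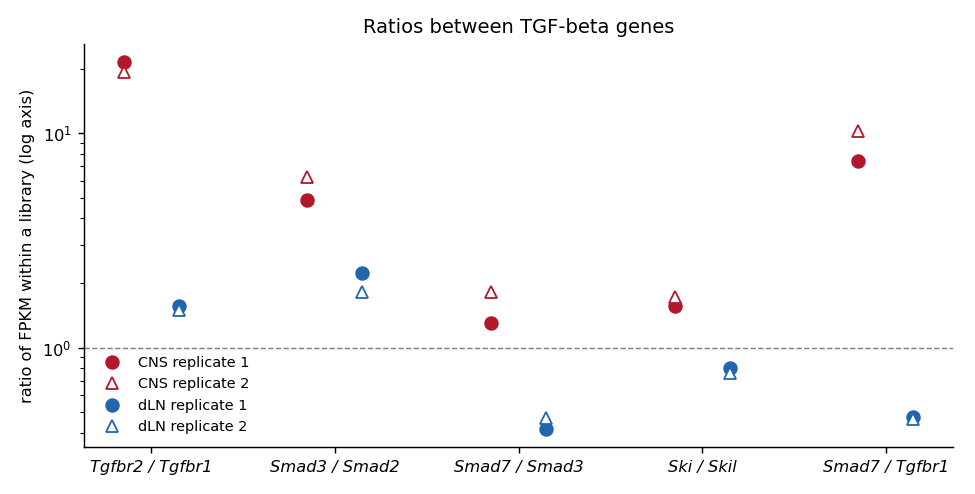
Ratio of the FPKM of 2 TGF-beta genes within each library (log axis), with CNS in red, dLN in blue, replicate 1 as filled circles and replicate 2 as open triangles; the dashed line marks equal FPKM. In each of the 5 ratios, chosen after the values were seen, both CNS libraries lay above both dLN libraries, with the widest gaps for Tgfbr2 to Tgfbr1 and Smad7 to Tgfbr1.

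Skil showed the clearer difference in transcript use. Its main transcripts, NM_011386 and NM_001039090, differ by 138 bases, which in the matching GENCODE M21 transcripts are the end of coding exon 4 of 7, at chr3:31113503-31113640 on the plus strand. The shorter form joins the next exon from a splice site inside that exon, and the reading frame is kept because the length is a multiple of 3. The segment is shown because the share of transcripts that keep it differed between the tissues.
Skil segment of exon 4: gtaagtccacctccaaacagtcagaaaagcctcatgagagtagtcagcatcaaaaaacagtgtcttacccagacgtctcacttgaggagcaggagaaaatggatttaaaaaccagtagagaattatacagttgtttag
The transcript that keeps the segment was at 14.9 and 15.4 FPKM in CNS and at 5.72 and 5.49 FPKM in dLN, and the one without it was at 17.8 and 16.9 FPKM in CNS and at 13.4 and 12.7 FPKM in dLN. The form with the segment made up 45.0% and 46.9% of the FPKM of Skil in CNS and 29.7% and 29.8% in dLN. That is a gap of 16.2 percentage points, many times the spread within either tissue, and it lay between 15.3 and 17.1 points with each library left out in turn (two-sided exact permutation p = 0.3333, the smallest possible). On the log2 scale the tissues differed by 1.29 for the form with the segment and by 0.38 for the form without it. The third transcript, NM_001271772, made up at most 1.63% of Skil in any library, and the second transcript of Smad2, NM_001252481, was at or under 1.76e-05 FPKM. The other 7 genes had a single transcript in the tables.

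**Figure D4:**
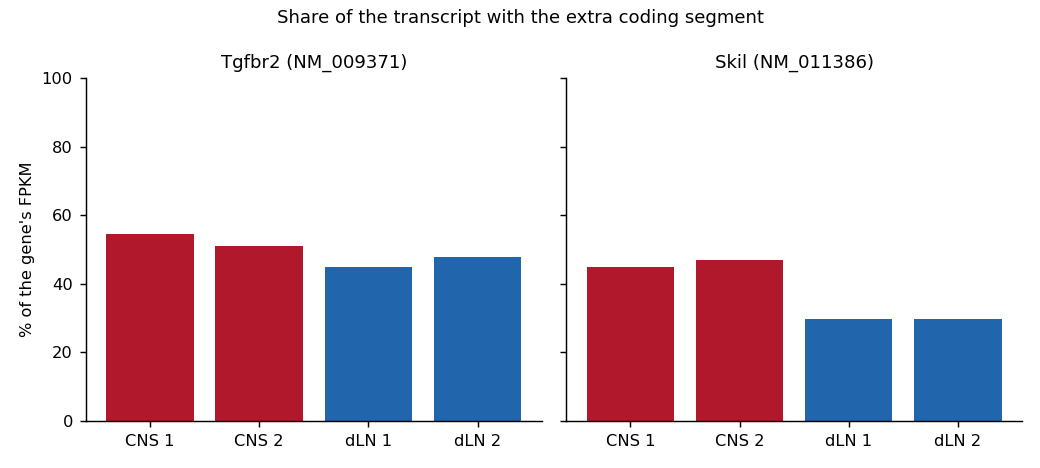
Share of the FPKM of Tgfbr2 (left) and Skil (right) that came from the transcript with the additional coding segment, in percent, in each library. The bars for Skil stood at 45.0% and 46.9% in CNS and at 29.7% and 29.8% in dLN, whereas those for Tgfbr2 lay between 44.9% and 54.5%.

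The order of the genes by level changed between the tissues. In CNS it ran from Tgfbr2 (mean 94.95 FPKM) and Tgfb1 (89.6 FPKM), whose libraries overlapped, through Ski, Smad7, Skil, Smad3 and Smad4 to Smad2 (4.82 FPKM) and Tgfbr1 (4.68 FPKM), which overlapped as well, and last Tgfb3 (2.23 FPKM). In dLN Tgfb1 stood alone at the top (82.9 FPKM), followed by Tgfbr2 (20.4 FPKM) and Skil (18.9 FPKM). Smad4, Ski, Smad3 and Tgfbr1 came next, between 15.7 and 13.2 FPKM, and each overlapped its neighbour within that run. Smad2 (7.004 FPKM), Smad7 (6.24 FPKM) and Tgfb3 (0.104 FPKM) closed the order in dLN. Smad7 was 4th in CNS and 9th in dLN, and Tgfbr1 was 9th in CNS and 7th in dLN. Replicates of a tissue differed little for most of the genes. The median size of the replicate difference over the 10 genes was 0.11 in CNS and 0.09 in dLN on the log2 scale, against 0.14 and 0.11 over all genes tested.

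Likeness of pattern was measured as the distance between log2(FPKM + 1) values centred over the 4 libraries. The tested genes nearest to Smad7 were Sulf2, Ctss and Apobr (distances 0.14, 0.15 and 0.17). All 3 shared with it the higher value in CNS replicate 2, for example Ctss, which encodes the lysosomal protease cathepsin S, at 129 and 182 FPKM in CNS and 29.4 and 23.7 FPKM in dLN. Nearest to Tgfbr1, which had the lowest log2 ratio, were Clcn5, Trp53rk and Lzic (distances 0.022, 0.023 and 0.039). With 4 libraries in 2 tissues many genes lie close, and 46 genes lay within a distance of 0.1 of Tgfbr1 and 0 within that distance of Smad7.

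The rest of the pathway was described through 8 lists of genes, of which 118 genes were not among the 10. Of these, 94 were tested, 34 were higher in CNS, 33 were lower and 27 did not pass, where 37.8% of all genes were higher and 37.2% lower. The count of each list below is to be read beside these shares, and no list was tested as a set. The median log2 ratio was -0.09 beside 0.05 over all genes tested.

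The first list held genes of the making, anchoring and release of latent TGF-beta. Of 7 tested among 14 listed, 4 were lower in CNS, 1 was higher and 2 did not pass, among them the activator Thbs1 (log2 ratio 0.89, limma adjusted p = 0.26). The median log2 ratio was -1.16. Itgb8 and Itgav, the chains of the integrin that activates latent TGF-beta on T cells, were both lower. Itgb8 was at 0.0812 and 0.286 FPKM in CNS and at 17.9 and 20.2 FPKM in dLN (log2 ratio -4.09, and -6.18 with a pseudocount of 0.1; limma adjusted p = 8.12e-05). Itgav was at 7.84 and 8.63 FPKM in CNS and at 68.0 and 72.3 FPKM in dLN (log2 ratio -2.95). Furin, the protease that cuts the TGF-beta precursor, was at 92.5 and 132 FPKM in CNS and at 305 and 328 FPKM in dLN (log2 ratio -1.51, limma adjusted p = 0.00138). Lrrc32, which encodes GARP, the anchor of latent TGF-beta on regulatory T cells, was lower as well (log2 ratio -1.16). Over 7 regulatory T-cell markers, Lrrc32 among them, the summed level was 493 and 589 FPKM in CNS and 938 and 901 FPKM in dLN. Much of that gap lay in 1 marker, Il2ra, at 56.7 and 64.5 FPKM in CNS and at 412 and 359 FPKM in dLN. Foxp3 was at 24.7 and 35.9 FPKM in CNS and at 81.6 and 78.2 FPKM in dLN, whereas Tnfrsf18 went the other way, at 195 and 247 FPKM in CNS and at 85.9 and 88.1 FPKM in dLN. Their part in the lower Itgb8 and Lrrc32 was not tested. Dcn, whose product binds TGF-beta in the matrix, was the gene that was higher (log2 ratio 1.03), at 0.815 and 1.53 FPKM in CNS and at most 0.106 FPKM in dLN. Over 8 endothelium and stroma markers the summed level was 21.8 and 27.4 FPKM in CNS and 12.1 and 9.75 FPKM in dLN. All 8 were higher in CNS replicate 2 than in CNS replicate 1, as Dcn was, and their part in its level was not tested.

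Close to the receptors, 3 of 10 tested genes were higher in CNS, 5 were lower and 2 did not pass. These 8 calls fell to 4 without dLN replicate 1 and to 4 without dLN replicate 2. Ldlrad4, which keeps Smad2 and Smad3 from the receptor and is induced by TGF-beta, was at 13.4 and 14.7 FPKM in CNS and at 3.06 and 1.86 FPKM in dLN (log2 ratio 2.14, limma adjusted p = 0.000511). Strap, a partner of Smad7 at the receptor, was at 49.4 and 44.0 FPKM in CNS and at 106 and 113 FPKM in dLN (log2 ratio -1.21). Fkbp1a, which encodes FKBP12, a protein that holds the type I receptor inactive, was lower too (log2 ratio -0.89). Eng and Tgfbr3, co-receptors found on cells other than T cells as well, passed as higher, but each was higher in CNS replicate 2 (3.24 and 3.01 FPKM) than in CNS replicate 1 (0.991 and 1.43 FPKM). Pmepa1, named after its values were seen because it is a common target gene, did not differ beyond its spread, at 15.05 and 13.8 FPKM in CNS and at 13.4 and 15.6 FPKM in dLN (limma adjusted p = 0.985).

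Among the ubiquitin ligases, deubiquitinases and phosphatases that set Smad and receptor turnover, 4 of 13 tested genes were higher in CNS, 5 were lower and 4 did not pass. Smurf2, the ligase that Smad7 brings to the receptor, was the clearest rise, at 14.0 and 11.9 FPKM in CNS and at 3.68 and 3.70 FPKM in dLN (log2 ratio 1.57, limma adjusted p = 0.000277). Its relative Smurf1 did not pass (log2 ratio -0.14, limma adjusted p = 0.35). Usp4 and Usp15, which remove ubiquitin from the type I receptor and its Smads, were lower (log2 ratios -0.82 and -0.57). Ppm1a, a phosphatase of Smad2 and Smad3, was lower as well (log2 ratio -0.66). Among the nuclear partners of Smads, 3 of 14 tested genes were higher, 6 were lower and 5 did not pass. Runx3, which works with Smads and marks cytotoxic T cells, was at 51.9 and 58.7 FPKM in CNS and at 9.38 and 8.83 FPKM in dLN (log2 ratio 2.48, limma adjusted p = 9.15e-05). The corepressor partners Hdac1 and Ncor1 were higher (log2 ratios 0.97 and 0.62), whereas Tgif1 and Tgif2, corepressors that bind Smads directly, were lower (log2 ratios -1.17 and -1.65). Zeb2 was at 2.17 and 3.31 FPKM in CNS and at 16.0 and 14.5 FPKM in dLN (log2 ratio -2.14).

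The kinase TAK1 carries a branch of the signal that does not use Smads. Of its 10 genes, 4 were higher in CNS, 3 were lower and 3 did not pass. Map3k7, which encodes TAK1, was at 9.76 and 10.3 FPKM in CNS and at 20.8 and 22.0 FPKM in dLN (log2 ratio -1.03, and -0.60 for its highest transcript alone). Its adaptor Tab2 was higher (log2 ratio 0.93), as was Tnfaip3, which encodes the inhibitor A20 (log2 ratio 1.54, and 2.78 for its highest transcript alone). Map2k6 was at 5.42 and 4.68 FPKM in CNS and at 0.0862 and 0.0964 FPKM in dLN. In the BMP and activin branch, 4 of 12 tested genes were higher, 3 were lower and 5 did not pass, and these 7 calls fell to 4 without dLN replicate 2. Inhba, which encodes a subunit of activin A, was at 0.104 and 4.21 FPKM in CNS and at 20.7 and 26.2 FPKM in dLN (log2 ratio -3.34, limma adjusted p = 0.0111), and its adjusted p was 0.0603 without dLN replicate 2. Its log2 ratio was -2.22 without CNS replicate 1. Smad1 and Smad5, the Smads of BMP signals, were both lower (log2 ratios -0.71 and -0.84). Id2, which favours effector T cells, was at 378 and 350 FPKM in CNS and at 91.0 and 51.6 FPKM in dLN (log2 ratio 2.39).

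**Figure D5:**
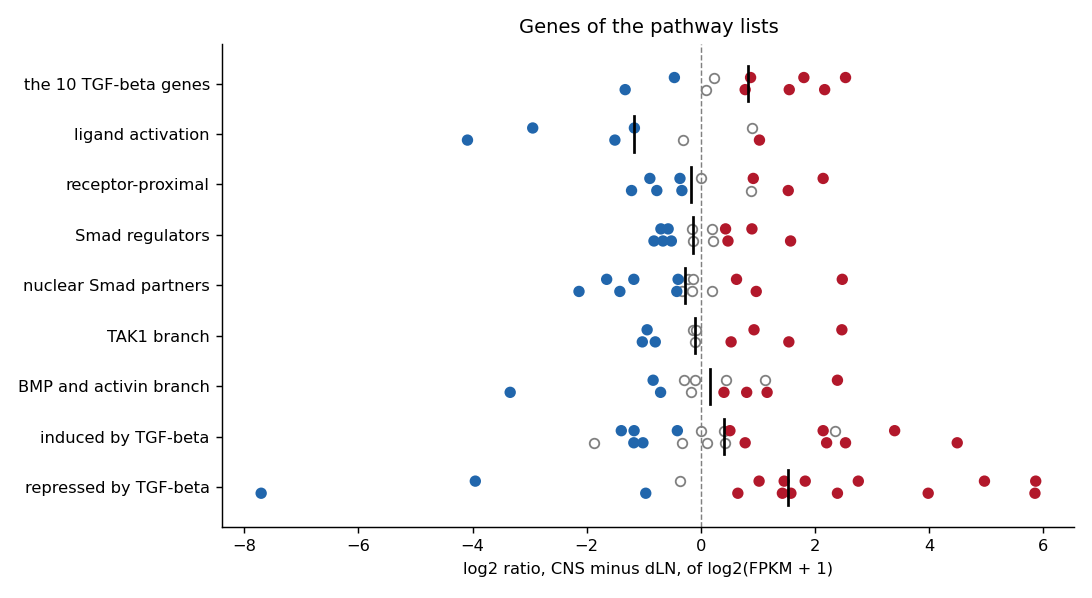
Log2 ratio, CNS minus dLN, of each tested gene of the 10 TGF-beta genes and of the 8 pathway lists. Red and blue points passed the adjusted p of 0.05 as higher and lower, open points did not pass, and black bars mark the median of each list. Points of most lists fell on both sides of 0. The genes that TGF-beta represses, a list chosen with the rise of some of them already known, had the highest median (1.52).

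Genes that TGF-beta is known to induce in T cells went both ways, as did all genes tested (37.8% higher, 37.2% lower in CNS). Of 19 tested on this list, 7 were higher in CNS, 5 were lower and 7 did not pass, with a median log2 ratio of 0.40. Smad7, Skil and Ldlrad4 belong to this list, so that 3 of the 7 were already described. Entpd1 and Nt5e, which encode CD39 and CD73, the enzymes that turn extracellular ATP into adenosine, were both higher. Entpd1 was at 16.8 and 16.9 FPKM in CNS and at 0.847 and 0.564 FPKM in dLN (log2 ratio 3.39), and Nt5e was at 30.8 and 31.3 FPKM in CNS and at 6.63 and 5.36 FPKM in dLN (log2 ratio 2.20). Itgae, which encodes the integrin chain CD103, was higher by less (log2 ratio 0.51, limma adjusted p = 0.0219). Foxp3, the lineage factor of regulatory T cells, and Ahr, a ligand-activated transcription factor, were lower (log2 ratios -1.39 and -1.02). Jun was at 293 and 391 FPKM in CNS and at 13.8 and 14.4 FPKM in dLN, the highest log2 ratio of the list (4.49). Tgfbi, which many cell types make, did not pass, and was at 0.719 FPKM in CNS replicate 1, 14.2 FPKM in CNS replicate 2 and 0 in dLN.

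Among genes that TGF-beta is known to repress in T cells, 12 of 16 were higher in CNS, 3 were lower and 1 did not pass, with a median log2 ratio of 1.52. This list was chosen with the rise of some of its genes already known, so its count and median are no independent evidence of a direction. The higher genes included the Th1 and cytotoxic genes Il12rb2 (log2 ratio 3.98), Eomes (1.58) and Tbx21 (0.65), and the trafficking genes Klf2 (5.86) and S1pr1 (4.97). Eomes also marks NK cells, and over 6 NK-cell markers, Eomes among them, the summed level was 5.14 and 7.96 FPKM in CNS and 0.27 and 0.18 FPKM in dLN. Klrb1c of that list was at 2.53 and 3.22 FPKM in CNS and at 0.0442 and 0 FPKM in dLN, Ncr1 was at 0 and 0.581 FPKM in CNS, and their part in the higher cytotoxic genes was not tested. S1pr1, a receptor that guides T cells out of lymph nodes, was at 80.1 and 70.4 FPKM in CNS and at 1.78 and 1.13 FPKM in dLN. The 3 lower genes were Il2, Myc and Gata3, of which Myc was at 22.1 and 26.5 FPKM in CNS and at 363 and 417 FPKM in dLN. Il2, which PMA and ionomycin are known to induce, was at 18.2 and 38.8 FPKM in CNS and at 5363 and 6176 FPKM in dLN. Whether the cells of both tissues were stimulated alike was not tested. The part of any such difference in Klf2, S1pr1, Myc and all other genes reported here, the TGF-beta genes included, was not tested either. Fasl did not pass (log2 ratio -0.36, limma adjusted p = 0.0629).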

How the data were processed

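Effector CD4 cells of 4 libraries were profiled by RNA sequencing, and the authors deposited FPKM per RefSeq transcript of mm10 (33819 transcripts), in 1 table per tissue. The reads had been trimmed and mapped. The aligner and the program that computed FPKM are not given in the sources used here. Whether the tables of the tissues were scaled together is not given either, so every comparison sets levels across separate tables, and only ratios and shares within a library are free of that scaling. The CNS table names both libraries in a single header cell, and its columns were assigned in that order.

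For each symbol the FPKM of its transcripts were added up, and the 565 transcripts without a symbol (0.142% to 0.446% of a library's FPKM) were left out. A gene entered the test if its mean reached 1 FPKM in CNS or dLN. The test was limma 3.58.1 under R 4.3.3, applied to log2(FPKM + 1). The model held tissue alone, variances were moderated with a trend, and p-values were adjusted after Benjamini and Hochberg. The methods name no test for RNA-seq genes. Fragments were estimated from low FPKM values, which fell within 0.05 of whole fragments in 88.7% to 91.7% of cases where chance gives 10%. The fragment estimate and the fit were tried on simulated data. Those for the fit held few changed genes, whereas most genes passed here, so they do not show its error rate in these data. The other steps used scipy 1.17.1, pandas 2.3.3 and numpy 2.4.6 under Python 3.11.15, and plots used matplotlib 3.10.9.

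The 10 genes, the 8 lists and the markers were chosen with earlier results of these data known. Of each list, up to 3 genes in each direction with a mean of at least 5 FPKM, an adjusted p under 0.05 and no overlap between tissues were named, and other genes of the lists were picked after their values were seen. Some genes that meet this rule are not reported here. Exons came from GENCODE M21 and promoters from RefSeq. Alternatives covered the pseudocount, scaling, filter, highest transcript, variances moderated without a trend, a replicate block, a minimum fold and each library left out.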

Additional observations from a re-analysis of the deposited data

How the results depend on the processing

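Of the 110 comparisons of the 10 TGF-beta genes with an alternative, 103 gave the same direction and the same call. Scaled to an equal sum, Tgfb1 turned to -0.11, and it lay between -0.17 and 0.34 with each library left out. Smad2 lay between -0.57 and -0.36 there and lost its call without 3 of the 4 libraries, so that 1 to 2 of the 10 genes were lower in CNS. Smad4 passed with the same upper quartile (0.37). Scaling to the same sum and to the same upper quartile shifted the median log2 ratio of all genes by -0.17 and 0.12, and the 8 called genes kept their direction under both. The highest transcript alone lowered the log2 ratio of Skil to 0.38, and it moved the difference in the log2 of Tgfbr2 to Tgfbr1 from 3.72 to 3.91 and that of Ski to Skil from 1.06 to 1.46.

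A minimum of 1 for the size of the log2 ratio left 5 of the 8 TGF-beta genes, 4 higher and 1 lower, 38 of the 67 called genes of the pathway lists (22 higher, 16 lower) and 4168 of the 7968 genes called in all (2230 higher, 1938 lower), because fewer genes meet a second criterion. Without a filter 16782 genes were tested.

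Among 41 other named genes, 438 of 451 comparisons kept their direction and call. Pmepa1, never called, reversed to 0.12 with the same upper quartile and lay between -0.11 and 0.10 with each library left out. Of 8 lists, the count of calls stayed within 1.5 times in 88 of 96 comparisons. Id3, Itch, Sik1 and Inhba lost their call in some alternatives.

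Replicate numbers 1 and 2 occur in both tissues, but no source says that they pair the libraries, and the correlation across genes between the replicate differences of CNS and those of dLN was 0.0933. With the replicate number as a block, 8 of the 10 TGF-beta genes and 7828 of all genes were called, and the block changed no call among the 10.

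Precision is limited by 2 libraries per tissue, and for Tgfb3 in dLN by 4 and 10 fragments.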
